A study of Rattus norvegicus with 16 samples.

Results

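Glucocorticoid-responsive genes were followed in rat liver through a long fast and re-feeding. The set holds 6 genes that are known to respond to glucocorticoids or to control how much of the hormone a cell makes active: Ddit4, Dusp1, Fkbp5, Tsc22d3, Sgk1 and Hsd11b1. They were chosen by name, and each was represented by its brightest row that carries 1 gene symbol. All 6 had a row, of 13215 genes with a row of their own, and each had exactly 1 such row. Their mean log2 signals were brighter than 79.2% (Fkbp5) to 99.5% (Hsd11b1) of the 18885 rows tested.

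The livers came from 16 male Sprague Dawley rats, and the RNA of each was run on its own Affymetrix Rat Exon 1.0 ST array. The 4 groups of 4 animals were fed rats (Fed), rats fasted to phase 2 of fasting (P2), rats fasted to phase 3 (P3), and rats fasted to phase 3 and then given food again for 2 days (P3r2). No genetic change or drug is named for any group, and age, fasting duration and time of day are not stated in the sources used here. Levels are log2 signals, with group means ± SD (n = 4). Each difference is in log2 units ± its standard error from the limma model. A gene is "called" where the limma adjusted p, taken over all 18885 rows tested, is below 0.05.

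Glucocorticoids, of which corticosterone is the main one in rats, enter cells and bind the glucocorticoid receptor, which a chaperone complex holds in the cytoplasm. The bound receptor moves to the nucleus and raises or lowers transcription of its target genes. In liver it is known for raising genes of glucose production and amino acid breakdown during fasting. No hormone was measured on these arrays, and several of these genes also respond to insulin, cyclic AMP or cell stress.

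The arrays were alike in level, with medians between 4.34 and 4.46 log2 units, and correlated at 0.967 to 0.992 within groups. Pairs of arrays from different groups reached 0.915 to 0.986, which overlaps that range. Array spread, the SD of all values on an array, went partly with group. It was 2.14 to 2.26 log2 units in P2 and 2.28 to 2.37 in the re-fed livers, without overlap. Fed arrays (2.12 to 2.35) and P3 arrays (2.18 to 2.32) overlapped both. Hepatocyte markers were bright on every array: the mean over the 5 of 8 listed markers that had a row lay between 12.8 and 13.2 log2 units. Their log2 summed signal was 15.27 to 15.50 in the fed livers, 15.54 to 15.57 in P2, 15.17 to 15.22 in P3 and 15.43 to 15.50 in the re-fed livers, and the fall from Fed to P3 was called for 2 of the 5 (8.06% of all rows tested). The log2 summed signal of 9 of 10 listed macrophage markers was 10.47 to 11.59 in fed livers, 11.16 to 11.56 at P2, 10.91 to 11.42 at P3 and 10.67 to 11.36 after re-feeding. That of 6 of 8 stellate cell markers was 10.09 to 10.74 in the fed livers, 9.47 to 9.81 in P2, 8.98 to 10.50 in P3 and 9.67 to 10.27 in the re-fed livers. Against Fed, 3 of the 6 were called lower at P2 (6.58% of all rows) and 3, not necessarily the same ones, at P3 (8.06%). Neutrophil markers averaged 3.42 to 3.98 log2 units, below the median of every array. The part of these shifts in the results was not tested, and in whole liver fewer cells of a type and less RNA per cell cannot be told apart.

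Most calls fell in phase 3. Of the 6 genes, 4 were called higher in P3 than in Fed and 2 lower, where 11.3% of all rows tested were called higher and 8.06% lower. Against P2, 3 were called higher and 1 lower in P3, where the shares over all rows were 13.5% and 8.53%. P2 itself had 2 genes called higher and 1 lower than Fed, with 6.13% and 6.58% over all rows. After re-feeding, 3 genes were called lower and 2 higher than in P3, with 7.93% and 10.5% over all rows. The comparisons with Fed share the 4 fed animals, and those with P3 share the 4 P3 animals.

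**Figure D1:**
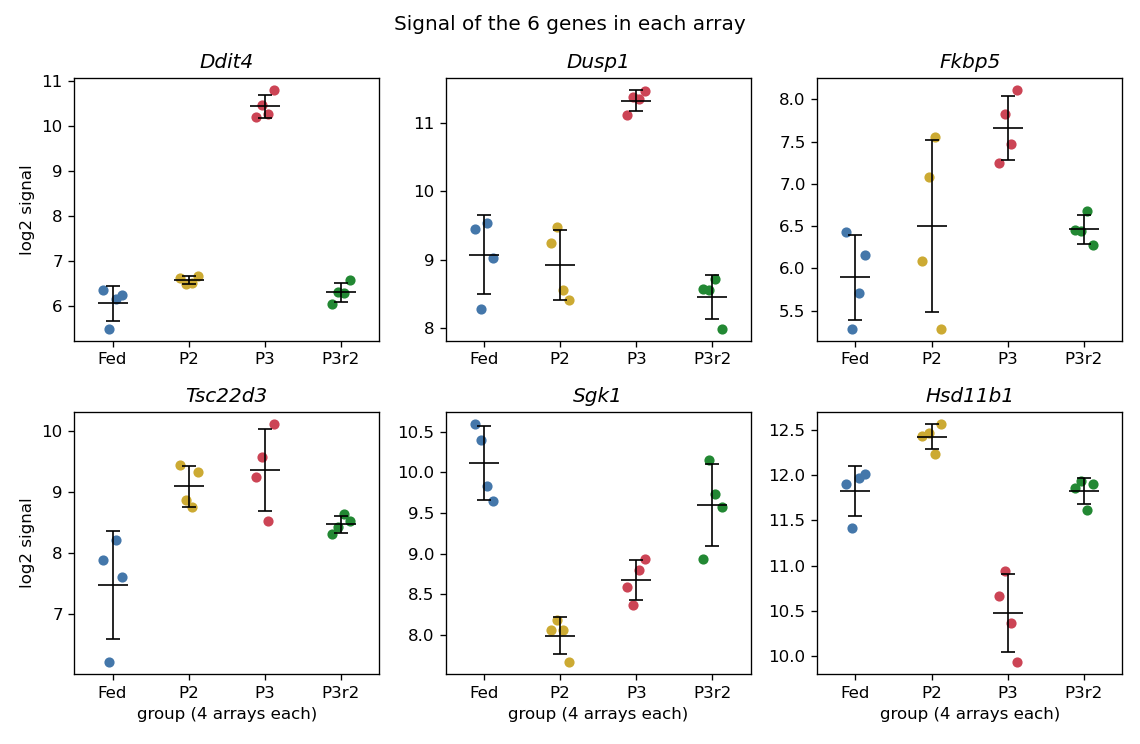
Log2 signal (vertical axis) of each of the 6 genes in the 4 groups (horizontal axis), with 1 point per array and a line and bar for the mean ± SD of 4 arrays. Ddit4 and Dusp1 are higher in all 4 P3 arrays than in any other array. Sgk1 has its highest mean in Fed, followed by P3r2, and Hsd11b1 is highest in P2 and lowest in P3.

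Ddit4, also called REDD1, is an inhibitor of the growth kinase complex mTORC1 that stress and glucocorticoids induce (transcript cluster 7222734). The region of 250 bases before its start (RefSeq, GRCr8 build, chr20:28437038-28437287, minus strand) is shown because Ddit4 had the largest rise of the set. Capitals mark the CCAAT boxes, both on the reverse strand, 121 to 117 and 88 to 84 bases before the start.
Ddit4: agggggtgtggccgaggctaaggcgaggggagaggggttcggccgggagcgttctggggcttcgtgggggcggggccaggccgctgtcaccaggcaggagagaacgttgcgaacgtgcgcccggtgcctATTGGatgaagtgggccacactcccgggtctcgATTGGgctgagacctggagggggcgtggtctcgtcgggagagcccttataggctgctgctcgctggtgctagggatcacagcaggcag
The log2 signal of Ddit4 was 6.36, 5.50, 6.16 and 6.24 in the 4 fed livers, 6.64, 6.49, 6.51 and 6.68 in P2, 10.21, 10.47, 10.28 and 10.80 in P3, and 6.06, 6.31, 6.29 and 6.58 in P3r2. All 4 P3 livers stood far above the other 12, none of which passed 6.68. Group means were 6.07 ± 0.39 in the fed livers, 6.58 ± 0.09 in P2, 10.44 ± 0.26 in P3 and 6.31 ± 0.21 in the re-fed livers. Ddit4 rose by 4.37 ± 0.18 in P3 against Fed, a 20.7-fold higher signal (95% interval of the log2 difference 3.99 to 4.75, limma adjusted p = 2.45e-10). It was also higher in P3 than in P2, by 3.86 ± 0.18 (adjusted p = 1.76e-09). With re-feeding it fell by 4.13 ± 0.18 (adjusted p = 4.31e-10). P3r2 and Fed differed by 0.24 ± 0.18, with an interval of -0.13 to 0.62. P2 and Fed differed by 0.51 ± 0.18, which missed the threshold (adjusted p = 0.0689), although no P2 value overlapped the fed values. It was called in 3 of 28 alternatives (adjusted p 0.0138 to 0.255), and was 0.33 without Fed 2 (adjusted p = 0.154) and 0.29 without the 3 arrays that fit their groups least (Fed 2, P2 4 and P3 3). Without Fed 2, P3r2 was 0.06 above Fed.

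Dusp1 encodes a phosphatase that switches off MAP kinases and is induced by glucocorticoids, growth factors and stress (transcript cluster 7066011). Its upstream region (GRCr8, chr10:17184603-17184852, plus strand) is shown beside that of Ddit4 because both genes were highest in P3. Capitals mark a cyclic AMP element TGACGTCA 124 to 117 bases before the start, a further shorter site TGACG at 172 to 168, and an E-box CACGTG at 107 to 102.
Dusp1: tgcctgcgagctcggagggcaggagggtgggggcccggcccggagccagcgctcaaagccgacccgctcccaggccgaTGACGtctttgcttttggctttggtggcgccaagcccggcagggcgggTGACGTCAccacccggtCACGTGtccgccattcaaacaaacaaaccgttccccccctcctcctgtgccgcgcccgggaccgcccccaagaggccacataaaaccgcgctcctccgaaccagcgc
In the fed livers the log2 signal of Dusp1 was 9.45, 8.27, 9.53 and 9.02, and in P2 it was 9.24, 9.47, 8.55 and 8.41. In P3 it was 11.11, 11.38, 11.35 and 11.47, and in P3r2 it was 8.57, 8.55, 8.72 and 7.98. Every P3 value lay above all 12 others, and the other 3 groups overlapped. Dusp1 rose 4.79-fold in P3 against Fed (2.26 ± 0.28 log2 units, adjusted p = 2.22e-05) and was 2.41 ± 0.28 above P2 (adjusted p = 1.74e-05). After 2 days of food it fell by 2.87 ± 0.28 (adjusted p = 2.17e-06). P2 did not pass the test against Fed (-0.15 ± 0.28, interval -0.74 to 0.44), and single arrays left out moved this difference from -0.42 without Fed 2 to 0.02 without P2 4. Re-fed livers had the lowest group mean, 8.45 ± 0.32, which was not called different from Fed (-0.61 ± 0.28, adjusted p = 0.315). With arrays weighted by how well they fit their group, that difference was called (-0.76, adjusted p = 0.0296), where the adjusted p ranged from 0.0296 to 0.575 over 28 alternatives.

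**Figure D2:**
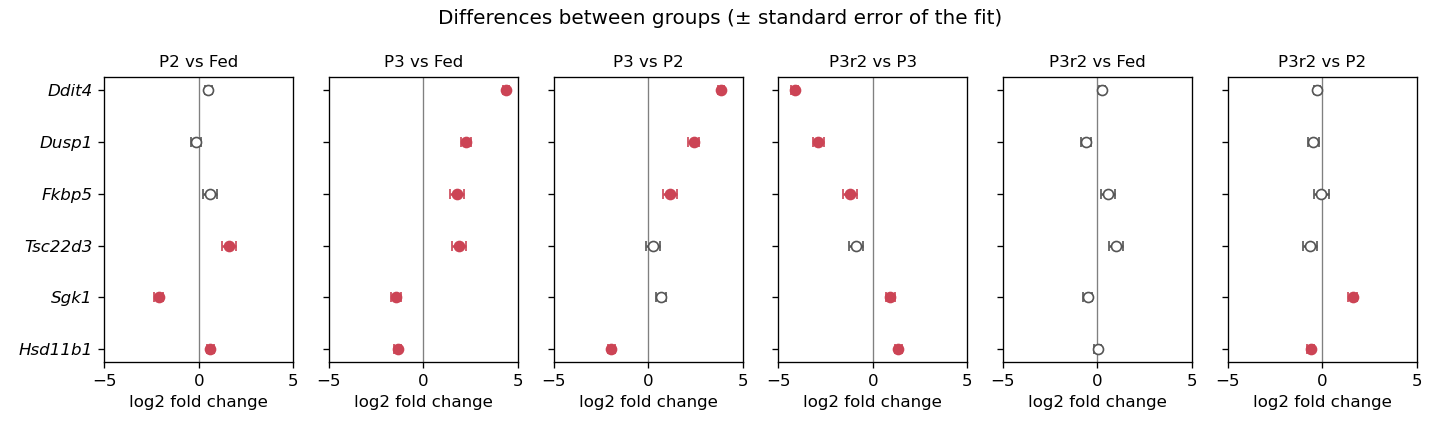
Log2 fold change (horizontal axis) of each gene (vertical axis) in the 6 comparisons, with bars for ± 1 standard error of the fit and filled red points for called differences. Filled points lie furthest from 0 for Ddit4 in P3 against Fed (4.37) and in P3r2 against P3 (-4.13), and no point is filled in P3r2 against Fed.

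Fkbp5 encodes a co-chaperone of the receptor that lowers its affinity for the hormone and is itself induced by it (transcript cluster 7221171). Its log2 signal was 6.43, 5.29, 5.71 and 6.16 in the fed livers, 6.09, 7.08, 7.55 and 5.29 in P2, 7.25, 7.83, 7.47 and 8.11 in P3, and 6.45, 6.44, 6.68 and 6.27 in the re-fed livers. P3 lay above all fed and all re-fed livers, while the P2 livers were split, with P2 3 above 2 of the P3 livers and P2 4 as low as the lowest fed liver. Fkbp5 rose 3.41-fold in P3 against Fed (1.77 ± 0.39, adjusted p = 0.00335). Its difference from P2 was 1.16 ± 0.39 (adjusted p = 0.0409), and it fell by 1.20 ± 0.39 with re-feeding (adjusted p = 0.0401). The call against P2 was lost in 14 of 28 alternatives, with adjusted p from 0.00653 to 0.13. Arrays whose removal ended it were Fed 3, P2 1, P2 4, P3 2, P3 4, P3r2 1, P3r2 2 and P3r2 3, and without P2 4 the difference was 0.76 (adjusted p = 0.13). The call for re-feeding was lost in 8 of 28 (adjusted p 0.00213 to 0.116), on removal of P3 2, P3 3, P3 4 or any 1 re-fed array, and with the replicate block. The smallest difference among these was -1.05 without P3 4 (adjusted p = 0.116). P2 against Fed was not called (0.61 ± 0.39, interval -0.21 to 1.43), and the difference ranged from 0.26 without P2 3 to 1.01 without P2 4. It was 0.40 without Fed 2.

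Tsc22d3, known as GILZ, encodes a leucine zipper protein that carries much of the anti-inflammatory action of glucocorticoids (transcript cluster 7383864). Tsc22d3 was picked for display because it was the gene of the set called higher at both P2 and P3. RefSeq gives it 3 starts, and the region before the most downstream one (GRCr8, chrX:109010035-109010284, minus strand) is shown. It was the only 1 of these 3 regions with a match to any motif searched. Which start the measured signal comes from was not tested. Capitals mark a FOXO element GTAAACA on the reverse strand 162 to 156 bases before the start, shorter cyclic AMP sites TGACG at 75 to 71 and 65 to 61, and CCAAT boxes at 188 to 184 and, on the reverse strand and overlapping it, 185 to 181.
Tsc22d3: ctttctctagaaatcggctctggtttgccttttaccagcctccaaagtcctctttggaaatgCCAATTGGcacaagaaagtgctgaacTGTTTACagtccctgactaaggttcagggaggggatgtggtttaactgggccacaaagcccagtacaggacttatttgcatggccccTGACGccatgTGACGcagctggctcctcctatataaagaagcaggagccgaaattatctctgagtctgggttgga
Log2 signals of Tsc22d3 were 7.89, 6.22, 8.21 and 7.61 in the fed livers, 9.44, 8.88, 8.75 and 9.33 in P2, 9.25, 9.58, 8.52 and 10.13 in P3, and 8.31, 8.42, 8.64 and 8.53 in the re-fed livers. Both fasted groups lay above all fed livers and overlapped each other, and the re-fed livers lay between Fed and P2. Tsc22d3 rose 3.07-fold in P2 (1.62 ± 0.37, adjusted p = 0.0116) and 3.70-fold in P3 (1.89 ± 0.37, adjusted p = 0.00155) against Fed. The rise in P3 was 1.46 without Fed 2, and that in P2 was 1.12 without Fed 2, P2 4 and P3 3 together. Both rises were called in all 28 alternatives. P3 and P2 differed by 0.27 ± 0.37, with an interval of -0.52 to 1.06, and by 0.02 without P3 4 and 0.55 without P3 3. Re-fed livers were 0.89 ± 0.37 below P3, which was not called (adjusted p = 0.123), nor was their 0.99 ± 0.37 above Fed (adjusted p = 0.198). The difference from P3 became called in 6 of 28 alternatives, among them -1.17 without P3 3 (adjusted p = 0.0372) and -0.89 without Fed 2 (adjusted p = 0.0289), over a range of adjusted p from 0.00171 to 0.327. Without Fed 2, P3r2 was 0.57 above Fed.

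Motif matches describe letters in these regions only. Over 33469 RefSeq promoters, each searched on both strands in the 250 bases before the start, the cyclic AMP element was found in 1.59%, its shorter form TGACG in 18.2%, the E-box in 5.59%, the FOXO element in 3.21% and the letters CCAAT in 34%. Every cyclic AMP element holds the shorter form. The glucocorticoid response element was searched as AGAACA and TGTTCT 3 bases apart, which 0.012% of promoters held exactly and 0.161% with 1 mismatch, and AGAACA alone was in 17.5%. None of the 9 regions listed for 5 of the 6 genes (Ddit4, Dusp1, Fkbp5, Tsc22d3 and Sgk1) held either form. Hsd11b1 had no entry among these promoters and was not searched. 

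Sgk1, the serum- and glucocorticoid-induced kinase, acts on ion transport and on FOXO factors downstream of insulin signalling (transcript cluster 7045121). Unlike the 4 genes above, it had its highest group mean in Fed. Its log2 signal was 10.60, 10.39, 9.83 and 9.65 in the fed livers, 8.06, 8.18, 8.06 and 7.66 in P2, 8.59, 8.36, 8.79 and 8.93 in P3, and 8.93, 10.15, 9.74 and 9.57 in the re-fed livers. All 8 fasted livers lay below all fed livers, and P3r2 1 was as low as the highest P3 liver while the other re-fed livers lay within or near the fed range. Sgk1 fell by 2.13 ± 0.25 in P2 against Fed, a 4.37-fold lower signal (adjusted p = 0.000156), and fell by 1.45 ± 0.25 in P3 (adjusted p = 0.000478). P3 was 0.68 ± 0.25 above P2, which missed the threshold (adjusted p = 0.0612) and was called in 5 of 28 alternatives, among them without P3r2 1 (adjusted p = 0.0335) and without P3r2 2 (0.0459), over a range of 0.0206 to 0.228. Re-fed livers were 0.93 ± 0.25 above P3 (adjusted p = 0.0143) and 1.61 ± 0.25 above P2 (adjusted p = 0.000773). The first of these was not called without P3r2 2 (0.74, adjusted p = 0.0549) or after quantile normalization (0.75, adjusted p = 0.0656), in a range of 0.00283 to 0.0656. Re-fed and fed livers differed by -0.52 ± 0.25, with an interval of -1.05 to 0.01, and by -0.30 without P3r2 1.

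Hsd11b1 encodes the enzyme that regenerates active glucocorticoid from its inert keto form inside liver cells (transcript cluster 7115615). Fed livers had log2 signals of 11.90, 11.42, 11.97 and 12.01, P2 livers 12.44, 12.47, 12.23 and 12.57, P3 livers 10.67, 10.94, 10.37 and 9.94, and re-fed livers 11.86, 11.94, 11.62 and 11.90. The 3 levels did not overlap: P2 lay above both Fed and P3r2, and P3 below them. Hsd11b1 fell by 1.95 ± 0.19 between P2 and P3, a 3.86-fold lower signal (adjusted p = 3.97e-06), and fell by 1.35 ± 0.19 in P3 against Fed (adjusted p = 6.99e-05). It rose by 1.35 ± 0.19 with re-feeding (adjusted p = 7.51e-05). Means of re-fed and fed livers were 11.83 ± 0.15 and 11.83 ± 0.27, with a difference of 0.00 ± 0.19 and an interval of -0.39 to 0.40. Its rise of 0.60 ± 0.19 in P2 against Fed was just past the threshold (adjusted p = 0.0463). That call was lost in 18 of 28 alternatives (adjusted p 0.022 to 0.205), on removal of any 1 array except P2 3, P3 2, P3 3 and P3 4, and was 0.42 without the 3 arrays of lowest weight. P3r2 was 0.60 ± 0.19 below P2 (adjusted p = 0.0406), a call lost in 13 of 28 (adjusted p 0.00968 to 0.128), on removal of Fed 1, P2 1, P2 2, P2 4 or any 1 re-fed array.

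Ordered by mean level, Ddit4, Fkbp5 and Tsc22d3 ran P3, P2, P3r2, Fed from high to low. Dusp1 ran P3, Fed, P2, P3r2, with no called difference among the last 3. Sgk1 ran Fed, P3r2, P3, P2, where only the step from P3r2 to P3 was called between neighbours. Hsd11b1 ran P2, P3r2, Fed, P3, where P3r2 and Fed were not told apart. For Ddit4 and Fkbp5 the only neighbours called different were P3 and P2, and for Tsc22d3 no neighbours were.

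Against Fed, re-fed livers had 0 of the 6 genes called in either direction by limma, where 2.21% of all rows were called higher and 0.514% lower. At an unadjusted limma p below 0.05, 2 of the 6 differed, Dusp1 and Tsc22d3. The share of all rows below that unadjusted threshold is not given here, so this count cannot be set against it. With array weights 1 was called, Dusp1, where calls over all rows in both directions together went from 514 to 1467. Against P2, 1 gene was called higher in P3r2 (Sgk1) and 1 lower (Hsd11b1), where the shares over all rows were 11.3% and 4.36%.

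On single arrays several of these genes lay at the edge of their group at once. Each animal had 1 array, so animal and array quality cannot be told apart. Fed 2 was the lowest of its group for 5 of the 6, with deviations from the group mean of -0.57 log2 units for Ddit4, -0.80 for Dusp1, -0.61 for Fkbp5, -1.27 for Tsc22d3 and -0.41 for Hsd11b1, and it lay 0.28 above the mean for Sgk1. This array had the narrowest spread of all values, with an SD of 2.12 log2 units where the other arrays had 2.14 to 2.37. Its low place was not particular to these 6 genes. Fed 2 was also the lowest fed liver for Hsp90ab1, Serpina6, H6pd, Slc37a4 and Akr1d1, described below, though not for Nr3c1. How often it was lowest over all rows was not counted. P3 4 was the highest P3 liver for 5 of the 6 and the lowest for Hsd11b1. The 6 calls in P3 against Fed were kept in all 28 alternatives, Fed 2 or P3 4 left out included.

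**Figure D3:**
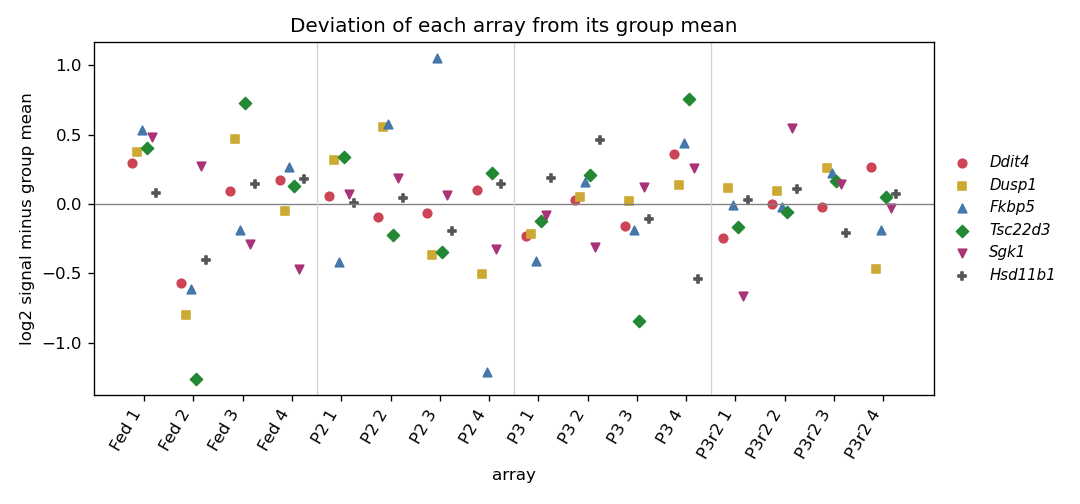
Log2 signal minus the mean of its group (vertical axis) for each of the 6 genes in each of the 16 arrays (horizontal axis), with 1 symbol per gene. Fed 2 lies below 0 for 5 genes, down to -1.27 for Tsc22d3, and Fkbp5 in P2 spreads from -1.22 in P2 4 to 1.05 in P2 3.

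Genes of hormone supply and receptor function were read from a list of 23, of which 14 had a row. In P3 against Fed, 4 of the 14 were called higher and 3 lower, where the shares over all rows were 11.3% and 8.06%. In P2 against Fed 1 was called higher and 3 lower, with 6.13% and 6.58% over all rows. The 3 lower in P2 became 0 without P2 4, 5 without P2 3 and 6 without P3 3, and the 1 higher became 2 without P3 3. The median difference was 0.09 in P3, where it was 0.03 over all rows. With re-feeding 4 were called higher than in P3 and 1 lower (10.5% and 7.93% over all rows), and the 1 lower became 2 without P2 1, P2 4 or P3 2 and 3 without P3 3.

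Serpina6, the carrier of corticosterone in blood, which the liver secretes, had the largest change of these. Its log2 signal was 11.35, 10.46, 11.28 and 11.03 in the fed livers, 9.14, 9.95, 10.31 and 9.30 in P2, 5.35, 4.54, 4.33 and 5.93 in P3, and 10.43, 10.40, 10.79 and 10.48 in the re-fed livers. It was lowest in all 4 P3 livers, and its P2 livers lay between these and the fed ones. Serpina6 fell by 5.99 ± 0.33 in P3 against Fed (adjusted p = 7.25e-09) and fell by 1.35 ± 0.33 in P2 (adjusted p = 0.0157). Its P3 signals of 4.33 to 5.93 came near the array medians of 4.34 to 4.46, so the size of the fall in P3 rests on weak signals. The fall in P2 was not called without P2 4 (adjusted p = 0.0561), the only 1 of 28 alternatives to end it. With re-feeding Serpina6 rose by 5.49 ± 0.33 (adjusted p = 1.41e-08), to within 0.50 ± 0.33 of Fed (adjusted p = 0.574).

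H6pd supplies the reduced cofactor that Hsd11b1 needs in the endoplasmic reticulum, and it moved the other way. It had log2 signals of 8.85, 8.33, 8.69 and 8.74 in the fed livers, 8.76, 8.39, 8.66 and 7.33 in P2, 10.98, 10.48, 10.41 and 10.82 in P3, and 8.44, 8.55, 8.42 and 8.53 in the re-fed livers. H6pd was higher in the 4 P3 livers than in any other liver. It rose by 2.02 ± 0.25 in P3 against Fed (adjusted p = 2.07e-05) and fell by 2.19 ± 0.25 with re-feeding (adjusted p = 1.04e-05). Slc37a4, which carries glucose 6-phosphate into the same compartment, was not called in any of the 6 comparisons and ranged from 8.86 to 10.81 within P3. Akr1d1, a reductase that inactivates glucocorticoids in liver, fell by 1.91 ± 0.21 in P3 against Fed (adjusted p = 6.68e-06) and rose by 2.26 ± 0.21 with re-feeding (adjusted p = 1.26e-06).

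The receptor gene Nr3c1 was at 8.93 ± 0.14 in the fed livers, 7.94 ± 0.36 in P2, 9.32 ± 0.53 in P3 and 8.62 ± 0.31 in the re-fed livers. All 4 P2 livers lay below all fed and all P3 livers. Nr3c1 fell by 0.99 ± 0.24 in P2 against Fed (adjusted p = 0.0145) and was 1.38 ± 0.24 higher in P3 than in P2 (adjusted p = 0.000536). P3 against Fed was not called (0.39 ± 0.24, adjusted p = 0.335). The fall in P2 was not called without P2 4 (adjusted p = 0.055), the only 1 of 28 alternatives to end it. Hsp90ab1, a subunit of the chaperone that holds the receptor, rose by 1.07 ± 0.23 in P2 (adjusted p = 0.00746) and by 0.85 ± 0.23 in P3 (adjusted p = 0.0133) against Fed. The rise in P3 was not called when only these 2 groups were fitted, which leaves its size as it is (adjusted p = 0.0959). It was smaller but still called without the 3 arrays of lowest weight (0.39, adjusted p = 0.0189), in a range of adjusted p from 0.00638 to 0.0959 over 28 alternatives.

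**Figure D4:**
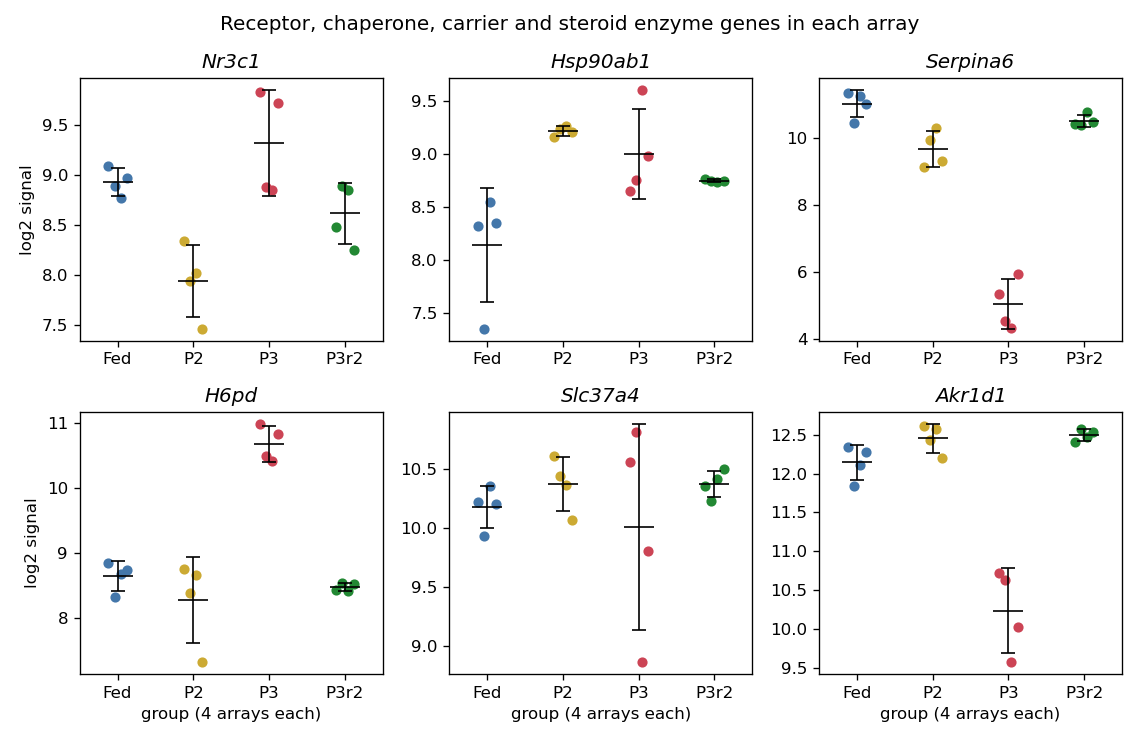
Log2 signal (vertical axis) of 6 genes of receptor function and hormone supply in the 4 groups (horizontal axis), with 1 point per array and a line and bar for the mean ± SD of 4 arrays. Serpina6 and Akr1d1 are lowest in all P3 livers and H6pd is highest there, while Slc37a4 spreads from 8.86 to 10.81 within P3.

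Other genes known to be induced by glucocorticoids were read from a list of 40, of which 33 had a row. In P3 against Fed 21 were called higher and 2 lower, where 11.3% and 8.06% of all rows were. In P3 against P2 19 were called higher and 1 lower (13.5% and 8.53% over all rows), and the 1 lower became 2 without P3 4. The median difference from Fed was 1.19 in P3 and 0.16 in P2, where it was 0.03 and 0.05 over all rows. In P2 against Fed 9 were called higher and none lower, with 6.13% and 6.58% over all rows. The 9 became 4 without Fed 4 or P2 1 and 5 without P2 2, and 1 to 2 were called lower without Fed 2, Fed 3, P2 3, P3 2 or P3 3. Shares over all rows in those fits are not given here, so these changes cannot be set against them. With re-feeding 18 were called lower and 3 higher than in P3, with a median of -1.21 and with shares over all rows of 7.93% and 10.5%. These genes answer to other signals of fasting as well, and the counts do not separate them.

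Igfbp1, which binds and restrains insulin-like growth factors, had the largest rise of the list in P3 against Fed, 5.97 ± 0.22 (adjusted p = 9.58e-11). It already rose by 3.13 ± 0.22 in P2 and fell by 7.91 ± 0.22 between P3 and P3r2, to 1.93 ± 0.22 below Fed (adjusted p = 0.000306). Ppargc1a, a coactivator of glucose production genes, rose by 5.10 ± 0.29 in P3 against Fed (adjusted p = 9e-09). Falls in P3 against Fed were those of Angptl4, an inhibitor of lipoprotein lipase (-2.99 ± 0.36, adjusted p = 2.19e-05), and A2m, a protease inhibitor of the acute phase (-2.14 ± 0.42, adjusted p = 0.0014).

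Re-fed livers were not all back at the fed level on this list, with 2 genes called higher and 7 lower than in Fed (2.21% and 0.514% over all rows). The 7 became 4 without Fed 1, Fed 4, P3r2 1, P3r2 2 or P3r2 4. The 2 higher were Usp2, a deubiquitinase under clock control (2.23 ± 0.34, adjusted p = 0.00248), and Per1, a clock gene (0.95 ± 0.21, adjusted p = 0.0224). The call of Per1 was lost in 7 of 28 alternatives, with adjusted p up to 0.0784, on removal of Fed 1, Fed 2, Fed 4, P3r2 1, P3r2 2 or P3r2 3 and with array spread as a covariate. Among the 7 lower genes, Pck1, which catalyses a first step of glucose production, was 3.18 ± 0.35 below Fed (adjusted p = 0.00024) and Cdkn1a, a cell cycle inhibitor, 2.27 ± 0.41 (adjusted p = 0.00796).

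**Figure D5:**
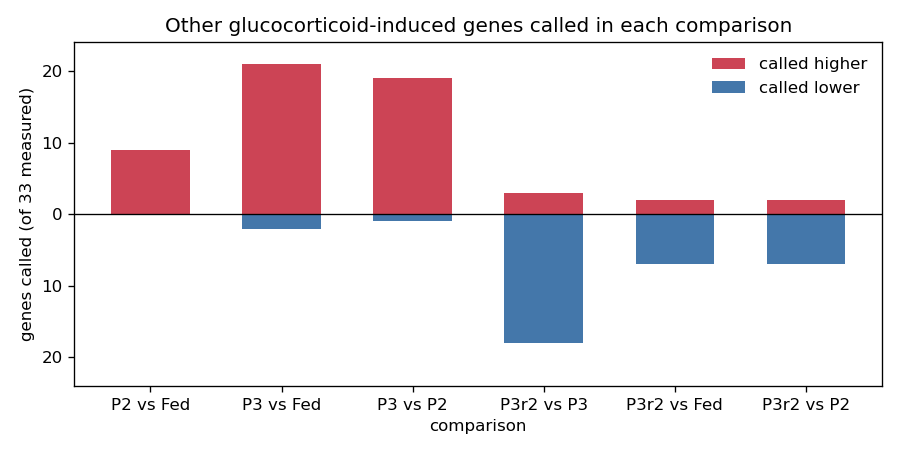
Number of the 33 measured genes of the list of other glucocorticoid-induced genes (vertical axis, drawn up for genes called higher and down for genes called lower) in each of the 6 comparisons (horizontal axis). Rises outnumber falls in P3 against Fed (21 and 2) and falls outnumber rises in P3r2 against P3 (18 and 3).

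The mTORC1 pathway, which Ddit4 restrains through the TSC complex, was read from a list of 30, of which 23 had a row. In P2 against Fed 4 of the 23 were called higher and 7 lower, with 6.13% and 6.58% over all rows, and the 7 became 3 without Fed 1, Fed 4, P2 2 or P2 4. Without P2 4, calls over all rows fell as well, from 2400 to 1200. In P3 against Fed 2 were called higher and 3 lower, which is near the shares over all rows of 11.3% and 8.06%. P3 had 8 called higher than P2 and none lower (13.5% and 8.53% over all rows), and 1 was lower without P3 3. Mtor, the kinase itself, fell by 1.33 ± 0.23 in P2 (adjusted p = 0.00257) and fell by 0.85 ± 0.23 in P3 (adjusted p = 0.0161) against Fed, and the latter was not called without P3 3 (adjusted p = 0.0542), the only 1 of 28 alternatives to end it. Tsc2, through which Ddit4 acts, fell by 0.95 ± 0.19 in P2 and fell by 0.84 ± 0.19 in P3 (adjusted p = 0.00519 and 0.00437). Rps6, a ribosomal protein downstream of the pathway, rose by 1.23 ± 0.23 in P2 (adjusted p = 0.00416), as did Eif4ebp1, a translation repressor that mTORC1 phosphorylates, by 0.86 ± 0.14 (adjusted p = 0.00171). Re-fed livers had 9 of the 23 called higher than P2 and none lower (11.3% and 4.36% over all rows). The 0 lower became 1 without Fed 2, P2 1, P3 1, P3 3 or P3r2 4, and the counts became 1 higher and 1 lower with array spread as a covariate. Re-fed and P2 arrays did not overlap in spread, so that fit cannot tell spread from group.

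MAP kinases, the kinases that activate them and the phosphatases that act on them were read from a list of 25 set beside Dusp1, of which 20 had a row. In P3 against Fed 5 of the 20 were called higher and 1 lower, with a median of 0.12 and with 11.3% and 8.06% over all rows. The 5 became 2 without Fed 2 and 3 without Fed 1, P3 1, P3 2 or P3 4, and the 1 lower became 2 without Fed 2. Dusp16, a phosphatase of JNK and p38, rose by 0.80 ± 0.15 (adjusted p = 0.00127), and Mapk8, which encodes JNK1, by 0.81 ± 0.18 (adjusted p = 0.00347). Mapk9, which encodes JNK2, fell by 2.07 ± 0.21 (adjusted p = 4.15e-06), and it also fell by 1.41 ± 0.21 in P2 (adjusted p = 0.00103).

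Sgk2, the paralog of Sgk1, was called in all 6 comparisons. It fell by 1.07 ± 0.21 in P2 against Fed (adjusted p = 0.0045) and was lower still in P3 (-2.66 ± 0.21 against Fed, adjusted p = 2.62e-07). With re-feeding it rose by 4.40 ± 0.21 (adjusted p = 1.04e-09), to 1.74 ± 0.21 above Fed (adjusted p = 0.000385), where Sgk1 was not called. Ndrg1, a substrate of Sgk1, rose by 1.57 ± 0.20 in P3 against Fed (adjusted p = 3.93e-05). Of the 13 measured of 14 genes listed with Sgk1, P3 had 3 called higher and 2 lower against Fed, with 11.3% and 8.06% over all rows. The 2 lower became 1 without Fed 1, Fed 3, Fed 4, P3 3 or P3 4.

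The 3 listed paralogs of Tsc22d3 all had a row and moved in different ways. Tsc22d1 fell by 2.29 ± 0.27 in P2 and fell by 2.57 ± 0.27 in P3 against Fed (adjusted p = 0.000166 and 5.12e-06), at the times when Tsc22d3 rose. Tsc22d2 rose by 2.27 ± 0.20 in P3 (adjusted p = 1.08e-06) and was not called in P2 (-0.40 ± 0.20, adjusted p = 0.202). Tsc22d4 was not called in any of the 6 comparisons. Of 14 other FKBP genes listed beside Fkbp5, 12 had a row, and in P3 against Fed none was called higher and 3 lower (11.3% and 8.06% over all rows). Without Fed 3, 1 was called higher, and without Fed 2, 5 were called lower. The 3 were Fkbp14, a chaperone of the endoplasmic reticulum (-1.42 ± 0.25, adjusted p = 0.000545), Fkbp8, a mitochondrial protein (-0.87 ± 0.13, adjusted p = 0.000125), and Fkbp11 (-0.63 ± 0.15, adjusted p = 0.00567).

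The genes whose levels were most like those of each gene were found by Pearson correlation over the 16 arrays, which share group, scaling and array quality, so that these values describe likeness over the 4 groups and carry no test. For Ddit4 they were Gadd45b (0.99), Nr4a1 (0.985) and Rdh16 (0.985), and for Dusp1 Tp53inp1 (0.96), Slc38a2 (0.96) and Ppp1r15a (0.96). Fkbp5 was most like Dclre1b (0.91), Ptpdc1 (0.90) and Mfsd5 (0.90), and Tsc22d3 was most like Uox (0.93), Amn1 (0.91) and Tmem38b (0.89). The nearest to Sgk1 were Dhcr7 (0.91), Csrp1 (0.90) and Cd164 (0.89), and to Hsd11b1 Spp2 (0.98), Ormdl2 (0.97) and Apoa2 (0.97).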

How the data were processed

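The deposited table holds 1 log2 signal for each transcript cluster and array, which the authors made with GCOS 1.4 and Affymetrix Expression Console 1.1, per the submitters' processing notes. Summarisation, background correction and normalization are not stated in the sources used here, and the log2 scale was inferred from the range of 0.84 to 13.6. No scaling was added. Of 19418 rows, 533 with identifiers below the annotated range were left out. Symbols were updated through RefSeq (GRCr8), where 13126 of 13215 genes matched. With limma 3.58.1 in R 4.3.3, 1 model with a mean per group was fitted over 16 arrays and 18885 rows, with 6 contrasts and eBayes. Tests were two-sided, and p-values were adjusted over every row by the Benjamini-Hochberg method. The steps were tested on simulated data. Precision is limited by having 4 arrays, each from a separate animal, in a group. The genes, gene lists and tests were chosen with earlier results of these data known. Named genes are the 6, up to 2 largest called rises and falls per list and comparison, close paralogs and partners, and the 3 genes most alike each. The CCAAT motif was added after the promoters were seen. Alternatives were quantile normalization, median centring, eBayes trend and robust options, array weights, filters on rows, the mean of a gene's rows, 2-group fits, a replicate block, and fits without each single array. Leaving out the 3 arrays of lowest weight (Fed 2, P2 4 and P3 3) and array spread as a covariate were chosen after seeing the data. Figures were drawn with matplotlib 3.10.9.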

Additional observations from a re-analysis of the deposited data

Results flagged for a closer look

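In 212 groups of 4 arrays, for the 6 genes and the other genes named, 10 held an array set apart from the others by nearly the whole range of its group (Dixon's test at the 95% level), and chance gives about 5%. None was a group of Ddit4, Dusp1, Fkbp5, Tsc22d3, Sgk1 or Hsd11b1. A2m was at 7.34 in P3r2 3, where the other re-fed arrays lay at 6.16 to 6.33. Cdkn1a was at 4.68 in P3r2 1, against 5.95 to 6.08. Pck1 was at 11.1 in P2 4, against 11.86 to 11.91. Mtor was at 6.12 in P3 3, against 6.90 to 6.94. Tsc2 was at 6.84 in P3r2 4, against 7.37 to 7.42. Fkbp11 was at 7.3 in P2 4, against 6.70 to 6.76. Among the genes most alike, Nr4a1 was at 4.66 in Fed 4 (others 3.92 to 4.03), Dclre1b at 6.09 in Fed 2 (6.49 to 6.56), Csrp1 at 9.63 in P2 2 (9.05 to 9.10) and Ormdl2 at 6.17 in P3r2 4 (highest 6.03).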

How the results depend on the processing

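Of 1008 values of the 6 genes under 28 alternatives, 919 kept their sign and their side of the threshold, 16 changed sign without being called in either fit, 55 were no longer called, 18 became called, and no called value reversed. The 16 belong to 4 differences near 0 (Dusp1 in P2 against Fed, Tsc22d3 in P3 against P2, Hsd11b1 in P3r2 against Fed and Fkbp5 in P3r2 against P2). The count of genes called higher in P2 against Fed, 2, was 1 after median centring, with the eBayes trend, with array weights, with the replicate block and without the 3 arrays of lowest weight, and 1 to 2 with single arrays left out. It was 3, with Ddit4 added, for bright rows alone and with array spread as a covariate. After quantile normalization it stayed at 2, with Ddit4 called (limma adjusted p = 0.0138) and Hsd11b1 not (adjusted p = 0.072). The count called higher in P3r2 against P3, 2, was 1 after quantile normalization and 1 to 2 with single arrays left out. In the same comparison the 3 called lower became 4 in some fits, among them quantile normalization, and 2 to 4 with single arrays left out. For P3 against P2, the 3 called higher became 2 after quantile normalization, 4 after median centring, and 2 to 3 with single arrays left out. The count called lower in P3r2 against Fed, 0, was 1 with array weights. The count called lower in P3r2 against P2, 1, was 2 after quantile normalization and in the 2-group fit, 0 after median centring, with the replicate block, without the 3 arrays and with array spread as a covariate, and 0 to 1 with single arrays left out. After quantile normalization the 2 were Ddit4 (-0.60, limma adjusted p = 0.0328) and Dusp1 (-0.71, adjusted p = 0.0436), and Hsd11b1 was not called (adjusted p = 0.0534). In the 2-group fit Tsc22d3 was added (-0.62, adjusted p = 0.0331). The cause was not tested. P2 and re-fed arrays did not overlap in spread. With array spread as a covariate, spread and group therefore cannot be told apart in P3r2 against P2. Deviations of animals that share a replicate number correlated at -0.40 to 0.26. No pairs of unlike number were set beside them, so these values cannot show whether the numbers pair the animals. With the replicate block 4 calls were lost and none gained. Over all rows, calls in P2 against Fed (2400) ranged from 1200 without P2 4 to 3249 with array weights, in P3r2 against Fed (514) from 242 without P3r2 3 to 1467 with array weights, and in P3r2 against P2 (2954) from 789 with array spread as a covariate to 4817 with array weights.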
